A study of Arabidopsis thaliana with 6 samples.

Results

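SFR2 (AT3G06510) and PLIP2 (AT1G02660) are 2 genes that act on the galactolipids of chloroplast membranes, and their transcript levels were followed in young leaves of Arabidopsis thaliana on 6 Affymetrix ATH1 arrays. Both were chosen because the genotypes differed at them on these arrays, so their differences between genotypes are given as a description, without a test. Each gene was read by 1 of the 22746 probe sets analysed. The probe set of PLIP2 was named by the platform annotation, whereas that of SFR2 was named only by the pairing of probe set and locus in the study's own list of misregulated genes.

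The study compared the T-DNA insertion mutant bzip63-2 (FLAG_610A08) with its wild type, the Ws accession. It looked for what lies behind the impaired growth of the mutant. The titles of the mutant arrays read H3-2. They are called arrays labelled bzip63-2 here, as the methods name only that mutant for the arrays. bZIP63 is a transcription factor that acts downstream of the energy-sensing kinase SnRK1. Plants of both genotypes grew for 25 d in soil at 22°C, with days of 10 h of light and nights of 14 h,, and were harvested as the night ended. There were 3 arrays labelled bzip63-2 and 3 Ws arrays, each from the 4 youngest leaves of 5 pooled plants, and the methods add the shoot apical meristem. The mutant is a single insertion line, and no treatment was applied to either genotype.

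Galactolipids, the mono- and digalactosyl diacylglycerols, make up most of the lipid of the thylakoid membrane. SFR2 (SENSITIVE TO FREEZING 2) is a galactosyltransferase of the outer chloroplast envelope that moves galactose from one galactolipid to another, which leaves diacylglycerol behind, and Arabidopsis plants that lack it do not survive freezing well. PLIP2 is a plastid lipase that cuts acyl chains from galactolipids. In Arabidopsis its transcript is known to respond to abscisic acid, and the fatty acids it releases can feed jasmonate synthesis.

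All deposited values were log2 values from RMA (Robust Multi-array Average), which corrects background, equalises the arrays and sums up the probes of a gene. Every array had the same lowest value, 2.47, and 39.4% to 42.2% of the values of each array came within 0.05 of that floor. RCA, the Rubisco activase gene of green leaves, was measured at 11.58, 11.71 and 11.82 in the arrays labelled bzip63-2 and at 11.52, 11.71 and 11.68 in the Ws arrays. It was the only 1 of 6 leaf markers with a named probe set. CLV3 of the shoot apical meristem and EXPA7 of root hairs, the only named markers of their 5 and 6, stood at the lowest value on every array, and none of 3 seed markers had a named probe set. bZIP63 itself was measured at 8.65, 8.55 and 8.78 in the arrays labelled bzip63-2 and at 5.32, 5.51 and 5.91 in the Ws arrays, so its probe set was higher under the mutant label. The position of this probe set with respect to the insertion is not given in the sources used here, and each direction below rests on the labels of the arrays.

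SFR2 was higher in the arrays labelled bzip63-2. Its log2 value was 5.74, 5.79 and 5.79 in these arrays and 5.30, 5.32 and 5.32 in the Ws arrays. The 2 genotypes did not overlap, and a gap of 0.42 lay between the lowest array labelled bzip63-2 and the highest Ws array. The means were 5.77 ± 0.03 (SD, n = 3 arrays) in the arrays labelled bzip63-2 and 5.32 ± 0.01 (SD, n = 3) in Ws, which differ by 0.46 on the log2 scale (standard error 0.02), or 1.37-fold. All 6 values lay well above the lowest deposited value, by 2.83 to 3.32 on the log2 scale.

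PLIP2 was lower in the arrays labelled bzip63-2. Its log2 value was 2.73, 2.75 and 2.59 in these arrays and 3.17, 3.37 and 3.72 in the Ws arrays. The 2 genotypes did not overlap here either, with a gap of 0.42 between the highest array labelled bzip63-2 and the lowest Ws array. The means were 2.69 ± 0.09 (SD, n = 3 arrays) in the arrays labelled bzip63-2 and 3.42 ± 0.28 (SD, n = 3) in Ws, a difference on the log2 scale of -0.73 (standard error 0.17). The 3 arrays labelled bzip63-2 stood only 0.12 to 0.28 above the lowest deposited value, whereas the Ws arrays stood 0.705 to 1.25 above it. In pooled leaves, fewer cells that express a gene and less RNA per cell cannot be told apart.

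Both genes thus had genotypes that did not overlap, SFR2 in one direction and PLIP2 in the other. Among all 22746 probe sets, 6.81% were higher without overlap in the arrays labelled bzip63-2 and 3.23% were lower without overlap. As the members were chosen from this same contrast, nothing is read from their count against these shares. The Ws arrays also differed among themselves at PLIP2, where replicate 3 was 0.54 above replicate 1, a range wider than the gap between the genotypes.

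**Figure D1:**
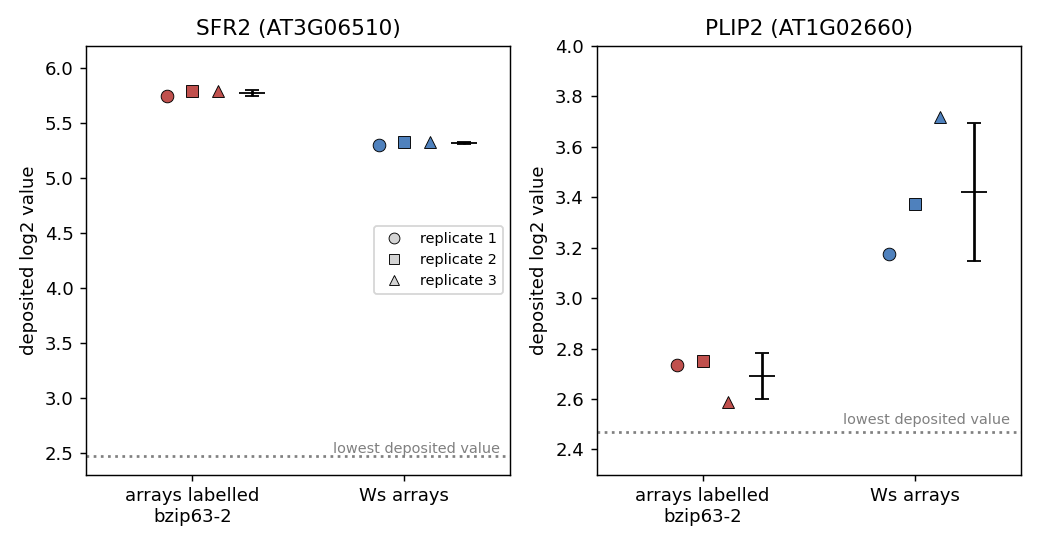
Deposited log2 value (y axis) of SFR2 and PLIP2 in the 3 arrays labelled bzip63-2 and the 3 Ws arrays, with marker shape for the replicate number, and mean ± SD beside the points. The dotted line is the lowest deposited value, 2.47, and the y axes of the panels differ. SFR2 sits at 5.74 to 5.79 in the arrays labelled bzip63-2 and at 5.30 to 5.32 in Ws, while PLIP2 sits at 2.59 to 2.75 and at 3.17 to 3.72.

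The members differed in how closely replicates lay together, with an SD of 0.03 in the arrays labelled bzip63-2 and 0.01 in Ws for SFR2, and of 0.09 and 0.28 for PLIP2. Among 497 probe sets whose mean over all 6 arrays lay within 0.25 of that of SFR2, the median SD was 0.09 in the arrays labelled bzip63-2 and 0.13 in Ws. For the 2965 probe sets as near to PLIP2, it was 0.07 in the arrays labelled bzip63-2 and 0.08 in Ws. The SD of PLIP2 in Ws was thus well above the median. These SDs come from the arrays that chose the members, and a small spread favours that choice, so they are given as a description only.

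A gap at least as wide as that of SFR2 was seen at 76 probe sets in either direction, of which 39 were higher in the arrays labelled bzip63-2. A gap at least as wide as that of PLIP2 towards lower values was seen at 35 probe sets. These counts, which include the members, describe the contrast that chose them.

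Genes that work beside SFR2 and PLIP2 were described from 13 lists, chosen by function. They held 166 genes, of which 39 had a probe set named by the platform annotation. With limma and adjustment over every probe set, 0 of these 39 passed an adjusted p of 0.05 in the higher and 0 in the lower direction, and likewise 0% of the 22746 passed in each direction. Even bZIP63, 8.48-fold higher under the mutant label, was not called in this fit. A list gene that was not called is thus not shown to be unchanged. At an unadjusted p under 0.05, 2 of the 39 were higher and 0 lower, against 4.33% and 2.04% of all probe sets. The median log2 difference of the 39 was 0, as it was over all probe sets, and 11 of the 39 stayed within 0.05 of the lowest value on every array.

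Of the nearest relatives of PLIP2, the plastid lipase gene PLIP3 was measured at 2.47 in all 3 arrays labelled bzip63-2 and at 2.51, 2.47 and 2.47 in Ws, at the lowest value or next to it. PLIP1 was not analysed here. The list of plastid and class 3 lipases had 5 of 13 genes named, and none was called, with adjusted p between 0.74 and 1 from limma. HIL1, a chloroplast lipase gene known for heat-stressed Arabidopsis, had a mean log2 value of 2.57 in the arrays labelled bzip63-2 and 2.58 in Ws. SAG101, a lipase-like gene of immune signalling, had means of 2.60 in the arrays labelled bzip63-2 and 2.57 in Ws, also close to the lowest value. DGL and DLAH stayed within 0.05 of the lowest value. The genotypes overlapped at all 5 of these lipase genes.

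For the galactolipids themselves, none of the 5 synthases MGD1, MGD2, MGD3, DGD1 and DGD2 had a named probe set, and neither did the lists of lipid import into plastids, of desaturases, of abscisic acid response and of phosphate starvation. In the list of the other plastid lipids, sulfolipid and phosphatidylglycerol, 1 of 5 genes was named. This was PGPP1 (AT3G58830), which encodes the phosphatase of the last step to plastid phosphatidylglycerol. It was measured at 4.19, 4.40 and 4.37 in the arrays labelled bzip63-2 and at 4.07, 3.97 and 4.06 in Ws, without overlap. Its log2 difference of 0.29 (standard error 0.07) missed the threshold (adjusted p = 0.51 from limma), and missed it too among the 8242 probe sets with means above 3 (adjusted p = 0.14 from limma).

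Diacylglycerol from SFR2 and fatty acids from plastid lipases can be stored as triacylglycerol in lipid droplets. Of 16 genes of triacylglycerol turnover and lipid droplets, 7 were named, and none was called, with log2 differences from -0.14 to 0.19. LDAP3, a coat protein gene of leaf lipid droplets, was measured at 3.97, 4.04 and 4.18 in the arrays labelled bzip63-2 and at 3.78, 4.17 and 3.69 in Ws, with overlap. LDAP1, of the same family, had means of 2.97 in the arrays labelled bzip63-2 and 2.86 in Ws. SDP1, the lipase gene that opens triacylglycerol breakdown, had means of 3.99 ± 0.16 (SD, n = 3 arrays) in the arrays labelled bzip63-2 and 4.12 ± 0.39 (SD, n = 3) in Ws. The plastoglobule gene FBN2, the only 1 of 4 named in its list, was lower in the arrays labelled bzip63-2 without overlap, by a log2 difference of only -0.05 (adjusted p = 0.74 from limma).

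In the supply of fatty acids, 3 of 12 genes were named and none was called. FAX1, the fatty acid exporter gene of the inner envelope, had a log2 difference of -0.11 (adjusted p = 0.78 from limma). FATB, a thioesterase gene that ends plastid fatty acid synthesis, had one of -0.05. FATA1 lay close to the lowest value, with means of 2.57 in the arrays labelled bzip63-2 and 2.58 in Ws. Of 19 genes of jasmonate synthesis and response, only OPCL1, of a late synthesis step, was named. Its means were low, at 2.75 in the arrays labelled bzip63-2 and 2.72 in Ws.

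SFR2 is known from freezing, and 3 of 15 genes of the cold and freezing response were named. COR47, a dehydrin gene, was measured at 5.62, 5.69 and 5.65 in the arrays labelled bzip63-2 and at 5.32, 5.75 and 5.68 in Ws, with overlap. COR15A and COR15B, which encode chloroplast proteins that protect membranes in the cold, had means of 2.74 and 2.65 in the arrays labelled bzip63-2 and of 2.75 and 2.65 in Ws. None of the 3 was called (adjusted p from 0.92 to 1 from limma).

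By its sequence, SFR2 belongs to glycoside hydrolase family 1, the beta-glucosidase family, of which 18 of 34 listed genes were named. None was called over all probe sets, and 17 of the 18 had a log2 difference between -0.11 and 0.23. The exception was PYK10 (BGLU23), a beta-glucosidase gene of endoplasmic reticulum bodies that is best known from roots and seedlings. It was measured at 4.95, 4.87 and 4.53 in the arrays labelled bzip63-2 and at 3.25, 3.84 and 3.63 in Ws, a log2 difference of 1.21 (adjusted p = 0.37 from limma). Among the 8242 probe sets with means above 3, PYK10 passed (adjusted p = 0.037 from limma), where 0.34% were called higher and 0.352% lower. PYK10 is in the study's own list from these arrays, so its direction is not independent evidence. EXPA7, the only 1 of 6 root markers named, stood at the lowest value on every array, as did CLV3 of the shoot apical meristem. A part of root tissue in the values of PYK10 was not tested.

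Of the listed genes, 3 were named only by the study's list and were kept out of the counts for that reason. CBF2, a cold-response transcription factor gene, was measured at 4.19, 4.83 and 4.89 in the arrays labelled bzip63-2 and at 3.40, 3.37 and 3.16 in Ws. HB-12 (ATHB-12), a homeobox gene induced by abscisic acid, was measured at 4.49, 4.29 and 4.47 in the arrays labelled bzip63-2 and at 5.10, 5.12 and 5.02 in Ws. GDPD2 (AT5G41080), a glycerophosphodiester phosphodiesterase gene of phosphate-starved plants, was measured at 2.68, 2.74 and 2.84 in the arrays labelled bzip63-2 and at 3.15, 2.84 and 3.73 in Ws. The genotypes did not overlap at CBF2, which was higher in the arrays labelled bzip63-2, or at HB-12, which was lower, and they overlapped at GDPD2. Over all probe sets none of the 3 passed (adjusted p = 0.35 for CBF2, 0.23 for HB-12 and 0.74 for GDPD2 from limma), and CBF2 and HB-12 passed among means above 3 (adjusted p = 0.034 and 0.019 from limma). The study chose all 3 on these arrays.

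**Figure D2:**
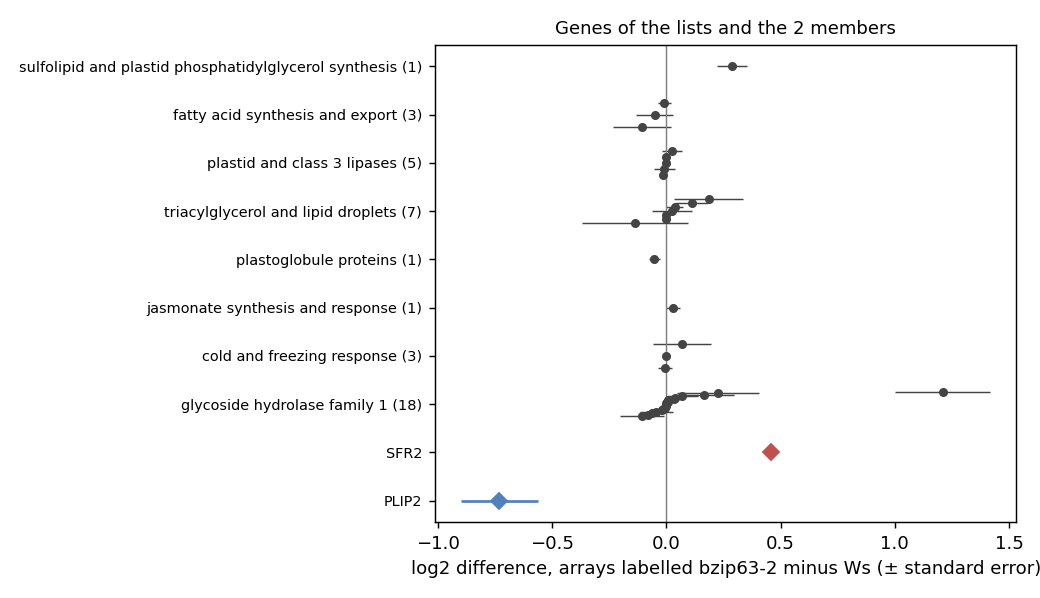
Log2 difference, arrays labelled bzip63-2 minus Ws (x axis), of the 39 list genes with a probe set named by the platform annotation, by list (number of genes in brackets), and of SFR2 and PLIP2 below. Bars are standard errors, from limma for list genes and from the SDs of the groups for the members. PYK10 at 1.21 stands to the right of the other list genes, which lie between -0.14 and 0.29, and the members lie at 0.46 and -0.73.

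Of 5 markers of senescing leaves, WRKY53, which encodes a regulator of leaf senescence, was the only 1 named by the platform annotation. It was measured at 3.44, 3.63 and 3.80 in the arrays labelled bzip63-2 and at 2.98, 2.93 and 2.94 in Ws (adjusted p = 0.33 from limma, and adjusted p = 0.038 among means above 3). ORE1, named only by the study's list, had means of 2.76 in the arrays labelled bzip63-2 and 2.50 in Ws. Their part in the values of SFR2 and PLIP2 was not tested.

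Genes with the pattern most like each member over the 6 arrays were taken from probe sets with 1 named locus, a mean above 4 and a range at least 50% of that of the member. For SFR2, 1513 probe sets qualified, of which 66 had a Pearson r above 0.9 and 27 had one below -0.9. The closest was SDRB (AT3G12800), a short-chain dehydrogenase gene, with r = 0.99 over 6 arrays and values of 4.98, 5.05 and 5.0 in the arrays labelled bzip63-2 against 4.28, 4.34 and 4.44 in Ws. AT2G36130, a cyclophilin gene, also had r = 0.99, and PORB (AT4G27440), of chlorophyll synthesis, had r = 0.98. PORB was measured at 7.09, 6.96 and 7.04 in the arrays labelled bzip63-2 and at 6.31, 6.35 and 6.33 in Ws, so that, as at SFR2, the Ws arrays lay close together. The most opposed were AT5G64850, AT2G30600, a BTB/POZ domain gene, and AT2G29670, with r between -0.99 and -0.98. Because the genotypes form 2 separate groups at SFR2, r carries that gap, and the genotypes were likewise without overlap at all 6 of these genes.

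For PLIP2, 364 probe sets qualified, of which 20 had r above 0.9 and 2 had r below -0.9. The closest was AT1G68440, which like PLIP2 was highest in Ws replicate 3. It was measured at 6.53, 6.42 and 6.42 in the arrays labelled bzip63-2 and at 6.92, 7.10 and 7.25 in Ws, with r = 0.98 over 6 arrays. AT3G05910 and AT4G29950 had r = 0.96, and both were also highest in Ws replicate 3. The Ws arrays of AT3G05910 spanned 0.54, as those of PLIP2 did, whereas those of AT4G29950 spanned 0.19, close to the 0.18 of its arrays labelled bzip63-2. All were picked for their r over these same arrays. The most opposed were AT5G09310 (r = -0.91), PORB (r = -0.90) and AT4G01460 (r = -0.90). The genotypes did not overlap at any of these genes, alike or opposed, so r carries that gap for PLIP2 too. The members have gaps in opposite directions, and PORB was among the 3 most alike to SFR2 and among the 3 most opposed to PLIP2.

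**Figure D3:**
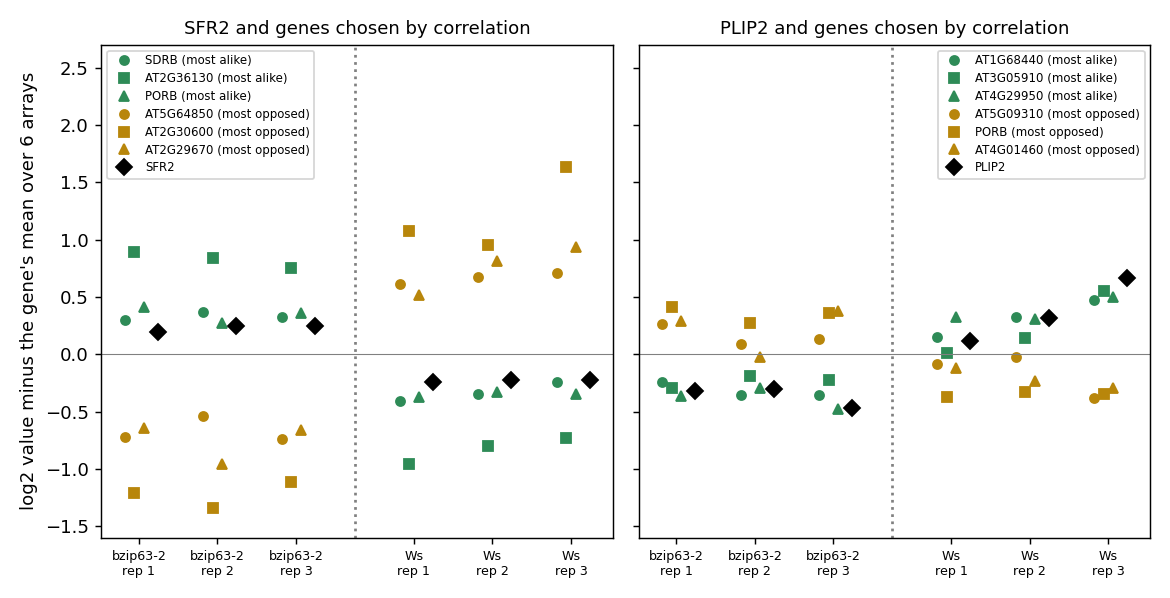
Log2 value minus the mean of the gene over 6 arrays (y axis) in each array (x axis, arrays labelled bzip63-2 left, Ws right) for SFR2 and PLIP2 (black diamonds), the 3 genes most alike (green) and the 3 most opposed (ochre) by Pearson r. In the left panel the genotypes separate for all genes, and in the right panel PLIP2 and the 3 genes most like it are highest in Ws replicate 3.

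The nearest named genes on the chromosome, 2 on each side of a member, had log2 differences between -0.06 and 0.13. The next named gene after SFR2, AT3G06520, was at 2.50 on all 6 arrays, and AT3G06530 had a log2 difference of 0.11 with overlap. Before SFR2, AT3G06480 and AT3G06470, 5 and 6 genes away, had log2 differences of 0.09 and 0.13, also with overlap. After PLIP2, AT1G02670, 1 gene away, had means of 2.52 in the arrays labelled bzip63-2 and 2.57 in Ws. AT1G02700, 6 genes away, was at 2.48 on all 6 arrays. AT1G02620 and AT1G02575, 6 and 13 genes away on the other side of PLIP2, had log2 differences of -0.02 and -0.06, the second without overlap. None of these 8 neighbours was called (adjusted p from 0.74 to 1 from limma).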

How the data were processed

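Transcript levels were measured on 6 ATH1 arrays, 3 labelled bzip63-2 and 3 Ws. Per the methods and the submitters' processing notes, the authors applied RMA in Affymetrix Expression Console and analysed the arrays in affylmGUI, for which the sources used here give no version. What was deposited is 1 log2 value per probe set and array, a scale inferred from their range of 2.47 to 12.52. Groups came from the sample titles, which read Ws or H3-2. That H3-2 stands for bzip63-2 was inferred from the methods, which name no other mutant for the arrays.

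After 64 control probe sets were left out, 22746 were fitted in R 4.3.3 by limma 3.58.1 (lmFit, then eBayes), with no block or filter and Benjamini-Hochberg adjustment over all of them. The fit was also run on simulated data, and the outcome of that run is not given here. Differences are given as bzip63-2 label minus Ws. The members were chosen from this contrast and got no test. Their standard error comes from the SDs of the 2 groups.

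The platform annotation gives 13513 probe sets 1 gene and 503 several, and 8730 are unlisted. Through the TAIR10.1 table of RefSeq genes, 13484 received a locus. The brightest probe set stood for a gene that had several. From the study's list of misregulated genes only the pairs of probe set and locus were used, and its fold changes and p-values were not. Names follow RefSeq where it holds them, and PLIP2 and other lipid gene names otherwise follow common use.

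Named are the members, bZIP63, up to 4 genes of the lowest unadjusted p in each list and the nearest homologues of the members. For each member the 3 genes with the highest and the 3 with the lowest Pearson r are also named. The members, the lists and the filter on means of 3 or less were chosen with earlier results of these data known. Alternatives covered the prior, array weights, normalization, dim probe sets, control probe sets, probe sets that can match several genes, a replicate block, the threshold and each array left out in turn. The number of arrays limits the precision.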

Additional observations from a re-analysis of the deposited data

How the results depend on the processing

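SFR2 and PLIP2 kept their direction under all 12 alternatives tried for each. As the genotypes did not overlap at either, leaving out 1 array, group medians, unlogged means and differences within replicate numbers could not reverse it. With quantile normalization repeated, the log2 difference of SFR2 was 0.41 in place of 0.46, a shift larger than its replicate SD, and the cause was not tested. Leaving out 1 array at a time gave 0.45 to 0.47 for SFR2 and -0.85 to -0.58 for PLIP2. With a replicate block, the differences of 0.46 and -0.73 stay the same by arithmetic, as the replicate numbers are balanced over the genotypes. In that fit, 0 of 39 list genes and 0 of 22746 probe sets were called, and no call changed. Same-numbered arrays had deviations that correlated at -0.04 to 0.05, and arrays of different numbers at -0.10 to 0.10. With so few arrays, these values cannot decide whether the numbers pair the samples.

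Among list genes named by the platform annotation, PYK10 was the 1 called of 13 tested once means of 3 or less were dropped. It was also the 1 called of 8 tested once means of 4 or less were dropped, and 2 of 39 had an unadjusted p under 0.05. In all other settings tried, 0 of these genes were called, leaving out 1 array included. Outside these counts, HB-12 passed without means of 3 or less, without means of 4 or less and with the dimmest 50% left out. CBF2 passed only without means of 3 or less. Of all probe sets, none was called in the fit without a filter, whereas 1449 had an unadjusted p under 0.05. Calls numbered 3 with quantile normalization repeated, 28 with the dimmest 50% left out, 57 of 8242 without means of 3 or less and 108 of 4126 without means of 4 or less. Leaving out 1 array gave 0 to 34 calls over all probe sets, with the 34 without Ws replicate 3, 5 without Ws replicate 1, 5 without Ws replicate 2 and 1 without bzip63-2 replicate 2. Signals close to the lowest value, as for PLIP2 in the arrays labelled bzip63-2, limit what these arrays can show of a difference.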
